A study of Homo sapiens with 13 samples.

Results

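The 10 genes described here form the regulatory arm of ATF4 and CHOP: the transcription factors ATF4, ATF3, ATF5, DDIT3 (which encodes CHOP) and CEBPB, and the stress-induced regulators TRIB3, CHAC1, PPP1R15A, SESN2 and DDIT4. They were chosen by name for their role in the integrated stress response, with earlier results of these data known. All 10 were found among the 63241 gene IDs of the count tables, and all 10 were among the 16756 genes that passed the filter on low counts. Messenger RNA of AC16 cells was measured in 13 libraries: 3 preconditioning+FCCP, 3 FCCP, 4 preconditioning and 3 control libraries. AC16 is an established human line, derived from ventricular cells of adult heart fused with transformed fibroblasts. FCCP carries protons across the inner membrane of mitochondria and so removes their membrane potential, and preconditioning is, per the series title and design text, optogenetic and directed at mitochondria with a construct named mOpto. The labels give every library the genotype wildtype and the cell type myocyte. Whether mOpto or light was also given to control and FCCP cells is not stated there, nor is a dose or time of FCCP.

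In the integrated stress response, kinases that sense unfolded proteins, amino acid shortage, haem shortage, double-stranded RNA or mitochondrial damage phosphorylate the translation factor eIF2alpha, which slows most protein synthesis while ATF4 mRNA is translated more. ATF4 pairs with C/EBP proteins on DNA and switches on amino acid supply, tRNA charging and further transcription factors, among them CHOP and ATF3. The arm also carries its own brakes, since PPP1R15A brings a phosphatase to eIF2alpha and TRIB3 binds ATF4. Poisons that depolarize mitochondria, FCCP among them, are known to engage this response in cultured human cells through the protease OMA1 and the messenger protein DELE1.

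ATF4 and its C/EBP partners bind composite elements with the core TGATGNAA, and ATF factors bind the cyclic AMP response element TGACGTCA, so the stretches just before the start sites are shown for the members that hold these letters. RefSeq promoters (GRCh38.p14, a newer build than the one named for the counts) were found for 10 of 10 members, 18 promoters in all, and the 250 bases before each start were searched on both strands. The first motif was searched as TGATGNAA and TTNCATCA, and the second reads the same on both strands. The matches are in capitals below. ATF3, a repressor and activator that ATF4 induces, held TGATGGAA starting 191 bases before the start in 1 of its 2 promoters (chr1:212565157-212565406, plus strand). CHAC1, which breaks down glutathione, held TTGCATCA starting 209 bases before the start (chr15:40953221-40953470, plus strand). PPP1R15A held TGACGTCA starting 58 bases before the start (chr19:48872171-48872420, plus strand).
ATF3: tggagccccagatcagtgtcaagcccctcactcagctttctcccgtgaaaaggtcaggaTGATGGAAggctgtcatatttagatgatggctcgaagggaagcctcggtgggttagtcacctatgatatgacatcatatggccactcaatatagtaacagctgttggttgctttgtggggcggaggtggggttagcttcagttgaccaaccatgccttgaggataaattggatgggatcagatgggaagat
CHAC1: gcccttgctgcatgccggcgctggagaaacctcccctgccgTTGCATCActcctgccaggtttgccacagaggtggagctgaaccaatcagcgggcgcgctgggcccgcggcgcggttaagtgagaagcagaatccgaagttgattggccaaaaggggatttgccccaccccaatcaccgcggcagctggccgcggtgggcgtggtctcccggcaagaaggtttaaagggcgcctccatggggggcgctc
PPP1R15A: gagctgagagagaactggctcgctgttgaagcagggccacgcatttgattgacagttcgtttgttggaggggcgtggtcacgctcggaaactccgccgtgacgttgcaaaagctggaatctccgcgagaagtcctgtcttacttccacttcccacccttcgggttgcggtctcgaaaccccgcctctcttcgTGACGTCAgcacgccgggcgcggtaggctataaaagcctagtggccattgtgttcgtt
Over all 35116 RefSeq promoters searched the same way, 3.14% held the first motif and 1.65% the second. A match in these letters describes the sequence and is no measurement of binding.

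Libraries held 14970803 to 20636229 counts over genes. No label ties replicates to separate cultures, and p-values therefore measure only how far these libraries spread, a spread that may be technical. No pair of libraries of a group agreed within sampling noise, chi-square per degree of freedom being 3.12 or more. The following 3 libraries stood apart from their groups, FCCP 1, control 3 and preconditioning+FCCP 3, and results that rest on them are given with and without them. Mitochondrial genes took 6.42% of counts in preconditioning+FCCP 3, against 1.33% and 2.32% in the other preconditioning+FCCP libraries, and 3.00% in control 3, against 9.58% and 8.95% in the other control libraries. Labels were used as given, and whether any of these libraries carries an exchanged label was not tested. An exchange would change what each comparison below means. Reads aligned to several places made up 7.13% to 11.5% of reads in 6 libraries (preconditioning+FCCP 3, FCCP 1 to 3, control 1 and 2), called the higher-share set, and 3.16% to 5.22% in the other 7, called the lower-share set. All FCCP libraries lie in the higher-share and all preconditioning libraries in the lower-share set, so that these groups and the sets are partly tied. A term for the set, used below, therefore rests on control 3 and preconditioning+FCCP 3 against the rest of their groups. Both are libraries that stood apart, so such a fit cannot separate the sets from what is particular to these libraries. Of 15 cardiomyocyte markers 5 were abundant enough to test. TNNT2, the cardiac troponin T gene, was at 0 in every library, and MYH6 and MYH7, the cardiac myosin heavy chains, had 3 and 4 counts over all libraries, against 12 of 12 fibroblast markers tested. The 5 cardiomyocyte markers tested were TTN, ACTN2, GATA4, TNNI3 and NPPB, with 1016, 323, 217, 116 and 101 counts over all libraries. Smooth muscle markers were all abundant enough to test, 8 of 8. The RNA therefore carried fibroblast and smooth muscle marker genes and few of the genes that define heart muscle. The label myocyte is thus not borne out by the heart muscle markers.

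Levels are CPM, gene counts scaled to a common library size. By mean CPM, preconditioning+FCCP was the highest group for 9 of 10 members and preconditioning the lowest for 9 of 10. DDIT4 was the exception at each end, with its highest mean in control and its lowest in FCCP libraries. Groups next to each other in this order overlapped, except preconditioning+FCCP above control for TRIB3, FCCP above control for ATF3, and control above preconditioning for ATF4 and DDIT3. Per kilobase of exon, ATF4 was the most abundant member in every group, with 660 ± 283 CPM per kilobase in preconditioning+FCCP, 529 ± 326 in FCCP, 166 ± 5.74 in preconditioning and 360 ± 67.7 in control libraries (SD, n = 3, 3, 4 and 3). ATF5 was at the other end in preconditioning+FCCP libraries with 8.15 ± 1.25 CPM per kilobase (SD, n = 3). The comparisons that follow share libraries, so each is given by its own values. In bulk RNA a lower level may be fewer cells that use a gene or less of its RNA per cell, which cannot be told apart.

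**Figure D1:**
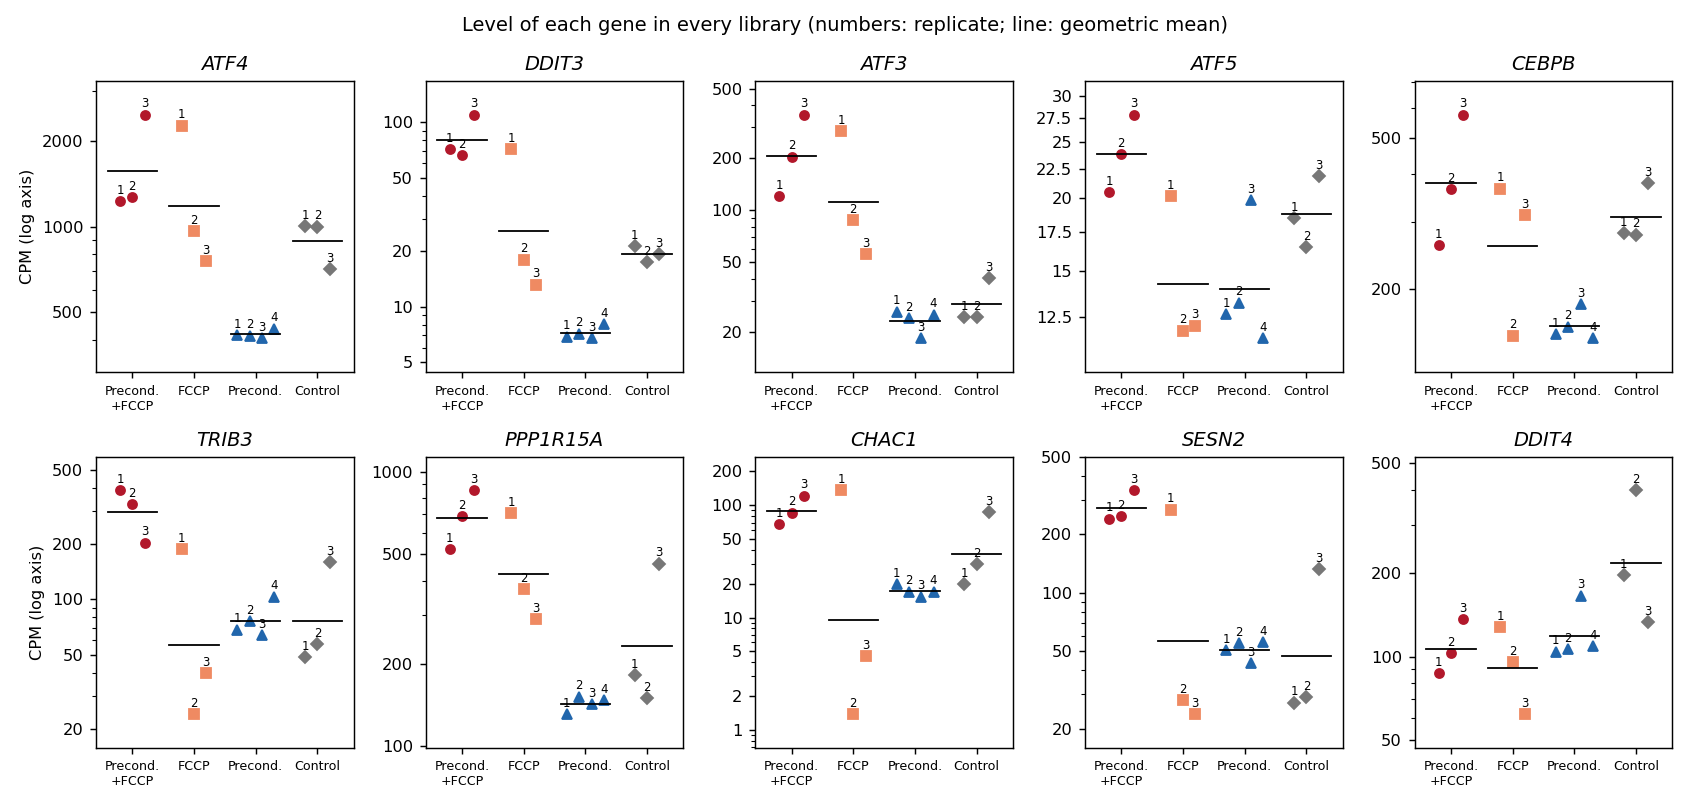
CPM on a log axis for each of the 10 members in preconditioning+FCCP, FCCP, preconditioning and control libraries; numbers are replicates and lines geometric means. Preconditioning libraries lie close together, FCCP 1 lies above FCCP 2 and 3 for 10 of 10 members, and 9 of 10 members lie higher in every preconditioning+FCCP than in every preconditioning library.

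FCCP in preconditioned cells moved nearly the whole arm. Against preconditioning alone, 9 of 10 members rose in preconditioning+FCCP libraries and none fell (edgeR's quasi-likelihood test, adjusted p under 0.05), where 39.4% of all genes tested were called, 20.2% as higher and 19.2% as lower. The median log2 change was 2.13 over the members and 0.02 over all genes. The same 9 members had every preconditioning+FCCP library above every preconditioning library. Of all genes 52.7% did not overlap, 26.6% being higher and 26.2% lower. The largest changes were those of DDIT3 and ATF3, and DDIT4 alone was not called.

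ATF4, the factor that gives the arm its name, had 1227, 1269 and 2479 CPM in the 3 preconditioning+FCCP libraries, against 415, 414, 404 and 438 CPM in the 4 preconditioning libraries. The lowest of the combined treatment was well above the highest of preconditioning alone, and preconditioning+FCCP 3 stood highest. ATF4 rose 3.97-fold (log2 1.99 ± 0.33 SE, adjusted p = 0.000325), and its mRNA says nothing of the translation through which the protein is mainly set. The 4 annotated ATF4 pseudogenes held 2, 0, 492 and 78 counts over all 13 libraries.

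DDIT3 encodes CHOP, the factor most often used as a mark of a prolonged response. It had 71.4, 66.5 and 109.9 CPM in preconditioning+FCCP libraries, against 6.90, 7.15, 6.74 and 8.04 CPM in preconditioning libraries. The groups lay far apart and the preconditioning libraries were tightly grouped. DDIT3 rose 11.4-fold (log2 3.52 ± 0.43 SE, adjusted p = 3.69e-05). In GENCODE 29, 27.2% of its exon bases lie on the opposite strand of exons of the methionyl-tRNA synthetase gene MARS1, and whether counting used strand is not given. MARS1 had 401, 354 and 336 CPM in preconditioning+FCCP libraries, against 207, 226, 201 and 216 CPM in preconditioning libraries. Its log2 change was smaller than that of DDIT3 (0.77 ± 0.25 SE, adjusted p = 0.0242), but from a higher level in CPM. Whether reads of MARS1 have a part in the DDIT3 counts was not tested.

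ATF3, a stress-induced factor of the same family, had 121, 203 and 354 CPM in preconditioning+FCCP libraries, against 26.0, 24.0, 18.3 and 25.0 CPM in preconditioning libraries. No library of one group came near the other, although the combined libraries differed 2.94-fold among themselves. ATF3 rose 9.68-fold (log2 3.28 ± 0.46 SE, adjusted p = 9.78e-05). CEBPB, a partner of ATF4 and CHOP on DNA, had 260.5, 366 and 576 CPM in preconditioning+FCCP libraries, against 152, 159, 182 and 148 CPM in preconditioning libraries. Its groups did not overlap either, and it rose 2.503-fold (log2 1.32 ± 0.28 SE, adjusted p = 0.00187). ATF5, a factor translated like ATF4 and tied to mitochondrial stress, had 20.5, 23.8 and 27.9 CPM in preconditioning+FCCP libraries, against 12.6, 13.2, 19.9 and 11.5 CPM in preconditioning libraries. Preconditioning 3 came within 1 CPM of the lowest combined library, and the change was the smallest of the 9 called (log2 0.75 ± 0.24 SE, adjusted p = 0.0222). The ATF5 call was kept in 2 of 7 fits that left out a library each, with log2 changes of 0.60 to 0.95, and was lost without preconditioning 1, 2 or 4 or preconditioning+FCCP 2 or 3. For ATF5 21.2% of exon bases overlap NUP62 on the other strand, for CEBPB 11.8% overlap CEBPB-AS1.

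The feedback members TRIB3 and PPP1R15A rose as well. TRIB3, a pseudokinase that binds ATF4 and blunts it, had 388, 327 and 203 CPM in preconditioning+FCCP libraries, against 68.6, 75.9, 64.0 and 103 CPM in preconditioning libraries. Unlike the other members, TRIB3 was lowest in preconditioning+FCCP 3, still above every preconditioning library, and it rose 3.92-fold (log2 1.97 ± 0.54 SE, adjusted p = 0.00913). PPP1R15A, also called GADD34, which lets the phosphatase PP1 undo the eIF2alpha mark, had 524, 692 and 857 CPM in preconditioning+FCCP libraries, against 131, 152, 142 and 148 CPM in preconditioning libraries. It rose 4.83-fold with no overlap (log2 2.27 ± 0.35 SE, adjusted p = 0.000204).

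CHAC1 had 68.3, 85.8 and 121 CPM in preconditioning+FCCP libraries, against 19.7, 17.0, 15.4 and 17.0 CPM in preconditioning libraries. Its groups were well apart, but CHAC1 varied so much in the FCCP and control groups that the shared estimate of spread was wide. It rose 5.31-fold (log2 2.41 ± 0.91 SE, adjusted p = 0.0462), a call kept in 0 of 7 fits with a library left out (log2 2.13 to 2.57, highest adjusted p 0.124) and not made by DESeq2. SESN2, a sestrin that holds back the growth kinase mTORC1, had 242, 249 and 338 CPM in preconditioning+FCCP libraries, against 50.5, 55.1, 43.4 and 55.6 CPM in preconditioning libraries. The libraries of each group were close, and SESN2 rose 5.40-fold (log2 2.43 ± 0.68 SE, adjusted p = 0.0103), a call that DESeq2 did not make. DDIT4, also named REDD1, holds back mTORC1 too and answers to hypoxia and glucocorticoids as well as ATF4. It had 87.0, 103 and 137 CPM in preconditioning+FCCP libraries, against 104, 107, 166 and 109 CPM in preconditioning libraries. These ranges overlapped, with a log2 change of -0.16 ± 0.32 SE (adjusted p = 0.723). For DDIT4 41.2% of exon bases lie opposite DDIT4-AS1.

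ATF4, ATF3, DDIT3, CEBPB, TRIB3, PPP1R15A and SESN2 kept their calls in 7 of 7 fits that left out a library each. The 9 members were also called within the lower-share set alone, with a term for the set, and without control 3, FCCP 1 and preconditioning+FCCP 3 together.

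**Figure D2:**
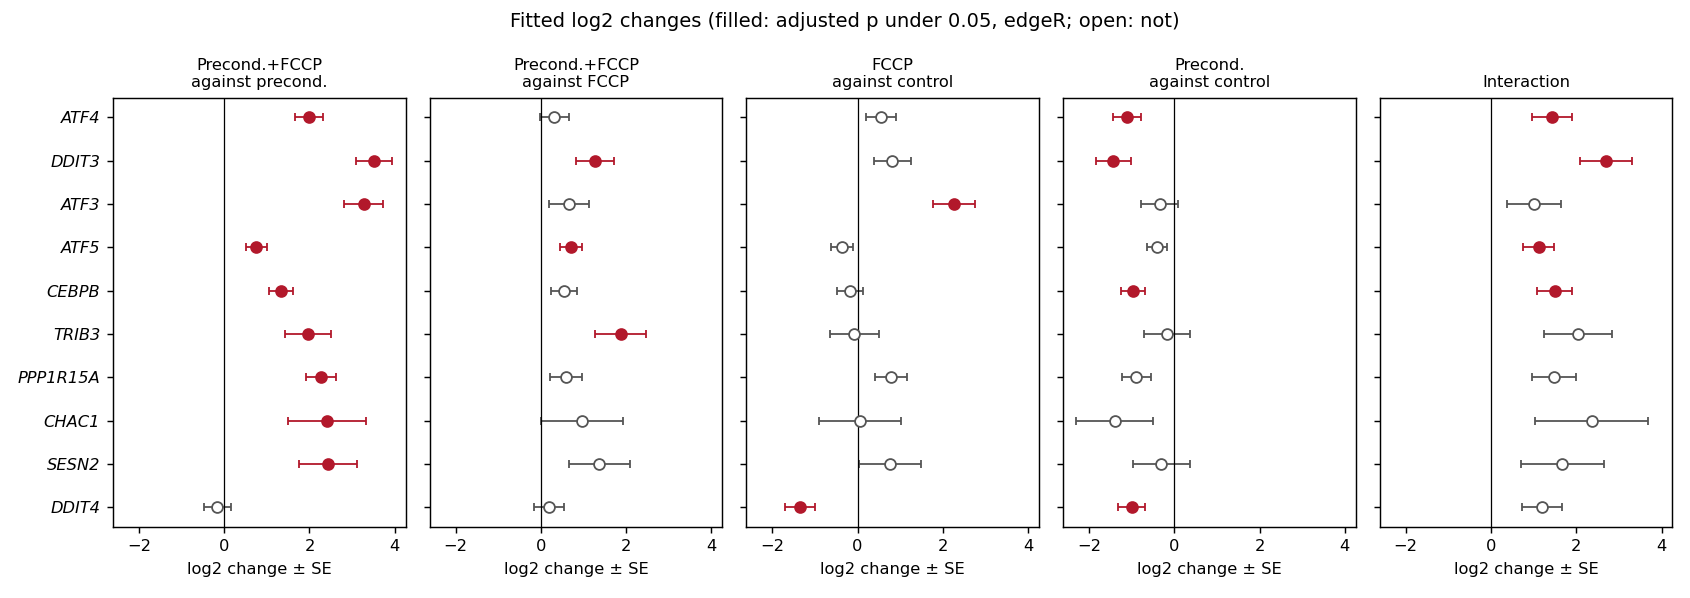
Fitted log2 changes with SE for the 10 members in the 4 comparisons and the interaction; filled points passed an adjusted p of 0.05. In preconditioning+FCCP against preconditioning 9 points are filled, and in FCCP against control 2 are, ATF3 to the right and DDIT4 to the left of 0.

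Among FCCP-treated cells, preconditioning went with higher levels of 3 members, ATF5, DDIT3 and TRIB3, while 35.7% of all genes were called, 17.9% as higher and 17.7% as lower. The share called among the members was thus below that over all genes, though all 3 calls were higher. All 10 members had a positive log2 change, with a median of 0.69 against 0.01 over all genes, and none fell. ATF5 and TRIB3 had every preconditioning+FCCP library above every FCCP library, while 43.2% of all genes did not overlap, 21.9% higher and 21.3% lower. The share of members without overlap was likewise not above that over all genes. The FCCP group itself was split: FCCP 1 had the highest level of its group for 10 of 10 members, and for 7 of them it lay within the range of the preconditioning+FCCP libraries.

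The preconditioning+FCCP levels are those given above. DDIT3 had 71.4, 18.0 and 13.2 CPM in the 3 FCCP libraries, so that FCCP 1 matched the combined libraries and the others lay far below (log2 1.27 ± 0.44 SE, adjusted p = 0.0332). TRIB3 had 187, 24.0 and 40.0 CPM in FCCP libraries, all below the combined treatment (log2 1.87 ± 0.59 SE, adjusted p = 0.0229). ATF5 had 20.2, 11.8 and 12.1 CPM in FCCP libraries, FCCP 1 lying just under the lowest combined library (log2 0.71 ± 0.26 SE, adjusted p = 0.0446). With a term for the library set TRIB3 had a log2 change of 1.03 (adjusted p = 0.219) and ATF5 of 0.72 (adjusted p = 0.0997), neither called, while DDIT3 was called (adjusted p = 0.0483). Without preconditioning+FCCP 3 only TRIB3 was called, where 35.5% of all genes were. Without FCCP 2, FCCP 3 or either other combined library no member was, where 22.1% to 25.3% of all genes were.

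CHAC1, SESN2 and ATF4 had FCCP 2 and 3 below every combined library. CHAC1 had 135, 1.38 and 4.55 CPM in FCCP libraries, a 98.1-fold range within the group that exceeded that of any other member. SESN2 had 268, 27.9 and 23.7 CPM in FCCP libraries. ATF4 had 2267, 963 and 757 CPM there. FCCP 1 stood within the combined treatment for ATF4 and SESN2 and above it for CHAC1. ATF3 had 284, 87.2 and 56.0 CPM, PPP1R15A 709, 374 and 291 CPM, and CEBPB 367, 150.3 and 313 CPM in FCCP libraries. For CEBPB, FCCP 1 and FCCP 3 both lay within the combined range. DDIT4 had 128, 95.4 and 61.9 CPM in FCCP libraries, with FCCP 1 and FCCP 2 within that range. None of these 7 passed the test, with log2 changes of 0.20 to 1.37.

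FCCP 1 was the highest FCCP library for 10 of 10 members, so leaving it out lowers the FCCP level of each. The fit without it therefore shows how far results rest on FCCP 1 and is no independent test of the members. Without FCCP 1, 8 of 10 members were higher in preconditioning+FCCP than in FCCP libraries. Of 17508 genes then tested, 3493 were called higher and 3450 lower, 39.7% in either direction. CHAC1 had a log2 change of 4.96 (adjusted p = 9.30e-05), SESN2 of 3.42 (adjusted p = 0.000417), TRIB3 of 3.25 (adjusted p = 0.000214) and DDIT3 of 2.402 (adjusted p = 3.13e-05). ATF4 changed by 0.95 (adjusted p = 0.0203). Only CEBPB (adjusted p = 0.0677) and DDIT4 (adjusted p = 0.346) were not called then. Beside this, mitochondrial genes took 6.49% of counts in FCCP 1, 1.94% in FCCP 2 and 1.55% in FCCP 3, and whether that share has a part in the split was not tested.

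FCCP without preconditioning changed 2 members against control, with 3.52% of all genes called, 1.6% as higher and 1.92% as lower. ATF3 rose 4.81-fold and DDIT4 fell to 0.391 of the control level. Each of the 2 had no overlap between the groups, where 19.3% of all genes had none, 8.84% upwards and 10.4% downwards. The median log2 change of the members was 0.30, against -0.04 over all genes, with 6 positive and 4 negative.

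ATF3, with the FCCP levels given above, had 24.2, 24.2 and 40.6 CPM in control libraries, every FCCP library being higher (log2 2.27 ± 0.49 SE, adjusted p = 0.0240). Without FCCP 1 its log2 change was 1.25 (adjusted p = 0.0571), and the call was also lost without control 1 or control 2. DDIT4 had 196, 399 and 134 CPM in control libraries, control 2 being the highest (log2 -1.35 ± 0.35 SE, adjusted p = 0.0465). Its call was lost without control 1, control 2, FCCP 2 or FCCP 3, with log2 changes of -1.67 to -0.80 over the fits with a library left out.

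The other 8 members were not called. ATF4 had 1005, 1000.5 and 708 CPM in control libraries, and the groups overlapped (log2 0.56 ± 0.35 SE, adjusted p = 0.388). DDIT3 had 21.4, 17.5 and 19.4 CPM in control libraries, with only FCCP 1 above them (log2 0.82 ± 0.44 SE, adjusted p = 0.307). PPP1R15A had 182, 149.9 and 463 CPM in control libraries, control 3 lying above FCCP 2 and 3 (log2 0.79 ± 0.37 SE, adjusted p = 0.244). PPP1R15A was called higher without control 3 (log2 1.45, adjusted p = 0.0229) and without the 3 libraries that stood apart (log2 0.97, adjusted p = 0.00212). Control 3 had the highest level of its group for 7 of 10 members. SESN2 had 27.2, 28.98 and 133 CPM, TRIB3 48.8, 57.1 and 158 CPM, and CHAC1 19.7, 29.8 and 87.1 CPM in control libraries. CEBPB had 280, 277 and 379 CPM, and ATF5 18.5, 16.5 and 21.9 CPM, where control 3 was again the highest. Without FCCP 1, where 5.1% of all genes were called, no member was higher and 2 were lower, DDIT4 and CHAC1, where CHAC1 had a log2 change of -3.97 (adjusted p = 0.00633). ATF4, DDIT3 and SESN2 then turned to log2 changes of -0.10, -0.34 and -1.31, none of them called. FCCP 1 was the highest FCCP library for 10 of 10 members, so leaving it out lowers the FCCP level of each.

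**Figure D3:**
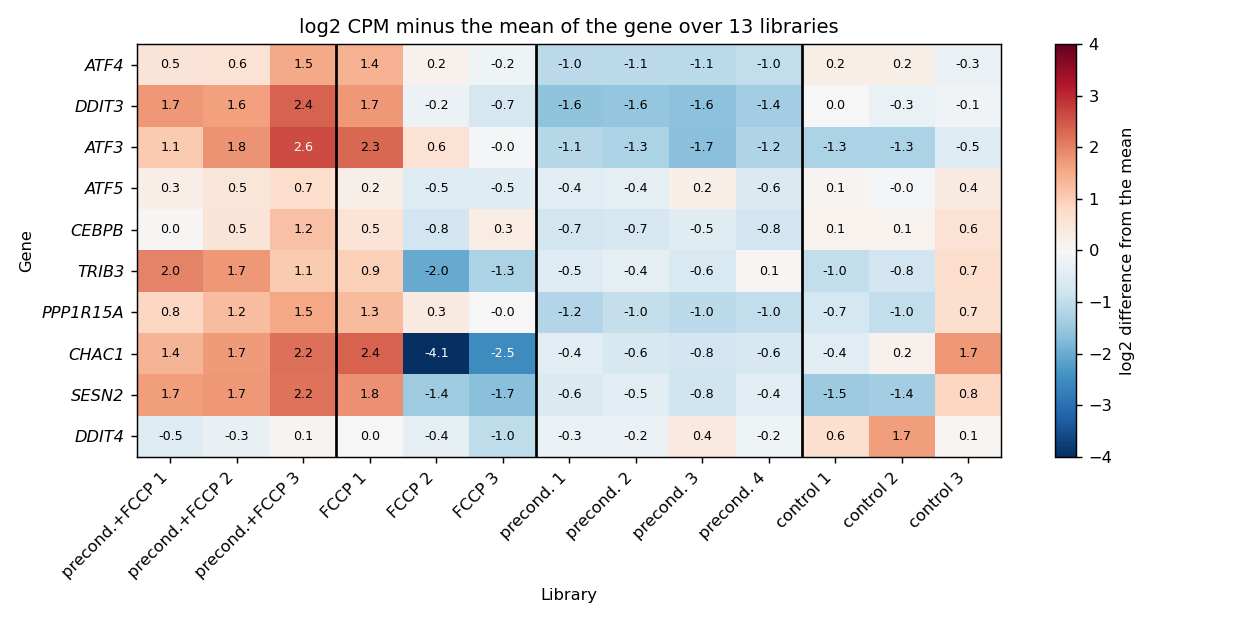
Log2 CPM of each member minus its mean over the 13 libraries; rows are members and columns libraries, ordered from preconditioning+FCCP to control. Averaged over the members the difference is 0.90 to 1.55 in preconditioning+FCCP libraries, 1.26, -0.84 and -0.76 in FCCP 1, 2 and 3, -0.79 to -0.71 in preconditioning and -0.37, -0.25 and 0.40 in control 1, 2 and 3.

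Preconditioning alone went with lower levels of part of the arm. Against control, 4 of 10 members fell (ATF4, DDIT3, CEBPB and DDIT4) and none rose, with 23.6% of all genes called, 10.5% as higher and 13% as lower. All 10 log2 changes were negative, with a median of -0.93 against -0.02 over all genes. In 3 members (ATF4, DDIT3 and CEBPB) every preconditioning library lay below every control library, while 36.7% of all genes did not overlap, 19.4% higher and 17.3% lower.

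ATF4 averaged 418 ± 14.4 CPM in preconditioning libraries (SD, n = 4) and 904 ± 170.2 CPM in control libraries (SD, n = 3), a fall to 0.462 of control (log2 -1.11 ± 0.32 SE, adjusted p = 0.0230). DDIT3 averaged 7.21 ± 0.58 CPM in preconditioning and 19.4 ± 1.95 CPM in control libraries, the largest fall of the 4 (log2 -1.43 ± 0.41 SE, adjusted p = 0.0228). CEBPB averaged 160.0 ± 15.5 CPM in preconditioning and 312 ± 58.1 CPM in control libraries (log2 -0.96 ± 0.28 SE, adjusted p = 0.0229). For DDIT4 the levels were 122 ± 29.8 CPM in preconditioning and 243 ± 139 CPM in control libraries, and the groups overlapped (log2 -1.0002 ± 0.32 SE, adjusted p = 0.0339). PPP1R15A was close to a call (log2 -0.89 ± 0.34 SE, adjusted p = 0.0726).

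These calls depended on which libraries were fitted. Each of the 4 was lost without control 1, control 2, preconditioning 1 or preconditioning 2, and with a term for the library set, and PPP1R15A was called lower without control 2. Without control 3, where 34.7% of all genes were called, ATF4, DDIT3 and DDIT4 remained lower and CEBPB was not called (adjusted p = 0.0510), and TRIB3 and SESN2 turned to log2 changes of 0.55 and 0.86, neither called. Within the lower-share set, where control 3 is the lone control library and is assumed to vary like the other groups, 8 members were lower and 19.9% of all genes were called. ATF4, DDIT3 and CEBPB kept a negative log2 change in every fit that left out a library, from -1.27 to -1.03, -1.50 to -1.36 and -1.04 to -0.81.

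The FCCP effect with preconditioning minus that without it was positive for all 10 members and passed the test for 4, with 19% of all genes called, 9.38% as higher and 9.6% as lower. DDIT3 led with a log2 difference of 2.70 ± 0.60 SE (adjusted p = 0.00711), which was called in 13 of 13 fits with a library left out, with values of 2.28 to 3.83. For CEBPB it was 1.497 ± 0.41 SE (adjusted p = 0.0206), a call lost without preconditioning+FCCP 3. ATF4 (1.43 ± 0.48 SE, adjusted p = 0.0468) and ATF5 (1.12 ± 0.36 SE, adjusted p = 0.0391) each kept the call in 3 of 13 such fits. PPP1R15A (adjusted p = 0.0520), TRIB3 (adjusted p = 0.0796) and DDIT4 (adjusted p = 0.0849) missed the threshold, with log2 differences of 1.48, 2.04 and 1.20. The median over the members was 1.49, against 0.07 over all genes. Without FCCP 1, 10 of 10 members were called, where 26.1% of all genes were, 2429 as higher and 2149 as lower. Leaving out this library, the highest of its group for every member, raises each difference, so these calls are no independent test.

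Relatives of the members, taken from a list of 10, did not all move with them. Against preconditioning alone, 5 rose and 1 fell in preconditioning+FCCP libraries. SESN3 and SESN1, sestrins like SESN2, rose by log2 2.30 ± 0.33 SE (adjusted p = 0.000106) and 1.34 ± 0.24 SE (adjusted p = 0.000645). PPP1R15B, the constitutive counterpart of PPP1R15A, rose by 1.13 ± 0.29 SE (adjusted p = 0.00598), CEBPG, a C/EBP partner of ATF4, by 1.19 ± 0.29 SE (adjusted p = 0.00511), and JDP2, the closest relative of ATF3, by 0.63 ± 0.18 SE (adjusted p = 0.0120). TRIB2, of the family of TRIB3, changed in the other direction from it, by log2 -1.80 ± 0.26 SE (adjusted p = 0.000116), and TRIB1 was not called (0.86 ± 0.44 SE, adjusted p = 0.135). CHAC2 (0.36 ± 0.25 SE, adjusted p = 0.270), DDIT4L (0.03 ± 0.62 SE) and CEBPD (-0.68 ± 0.70 SE) were not called. Of 14 C/EBP, ATF and related factors outside the members, 5 rose (FOS, CEBPG, XBP1, JDP2 and ATF7) and ATF6B fell (-0.56 ± 0.15 SE, adjusted p = 0.00923). Against FCCP alone, 4 relatives rose (SESN3, SESN1, CEBPG and TRIB1) and 2 fell (TRIB2 and CEBPD).

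Part of the genes that ATF4 is known to control rose beside the arm in preconditioned cells given FCCP. Over all genes 20.2% rose and 19.2% fell in this comparison. Of 12 genes of amino acid synthesis and one-carbon metabolism, 7 rose and 1 fell against preconditioning alone, with a median log2 change of 0.71. CTH, of cysteine synthesis, rose by 2.41 ± 0.36 SE (adjusted p = 0.000158), and PHGDH and PSAT1, which open serine synthesis, by 1.36 ± 0.22 SE (adjusted p = 0.000306) and 1.62 ± 0.30 SE (adjusted p = 0.000788). PYCR1, of proline synthesis, was the gene that fell (-0.62 ± 0.21 SE, adjusted p = 0.0282). Of 8 amino acid transporters 3 rose, SLC1A4, SLC3A2 and SLC1A5, and of 12 tRNA synthetases 5 rose, led by CARS1 (1.53 ± 0.22 SE, adjusted p = 0.000110). The share of genes called in these 2 lists was close to the 39.4% called over all genes in either direction. All of their calls were higher, a share above the 20.2% called higher over all genes. Their median log2 changes were 0.84 and 0.47, against 0.02 over all genes. Of 14 other targets tested 8 rose, among them the autophagy gene MAP1LC3B (1.48 ± 0.21 SE, adjusted p = 0.000116) and GADD45A (1.66 ± 0.39 SE, adjusted p = 0.00347). None of these 3 lists held a gene that fell.

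**Figure D4:**
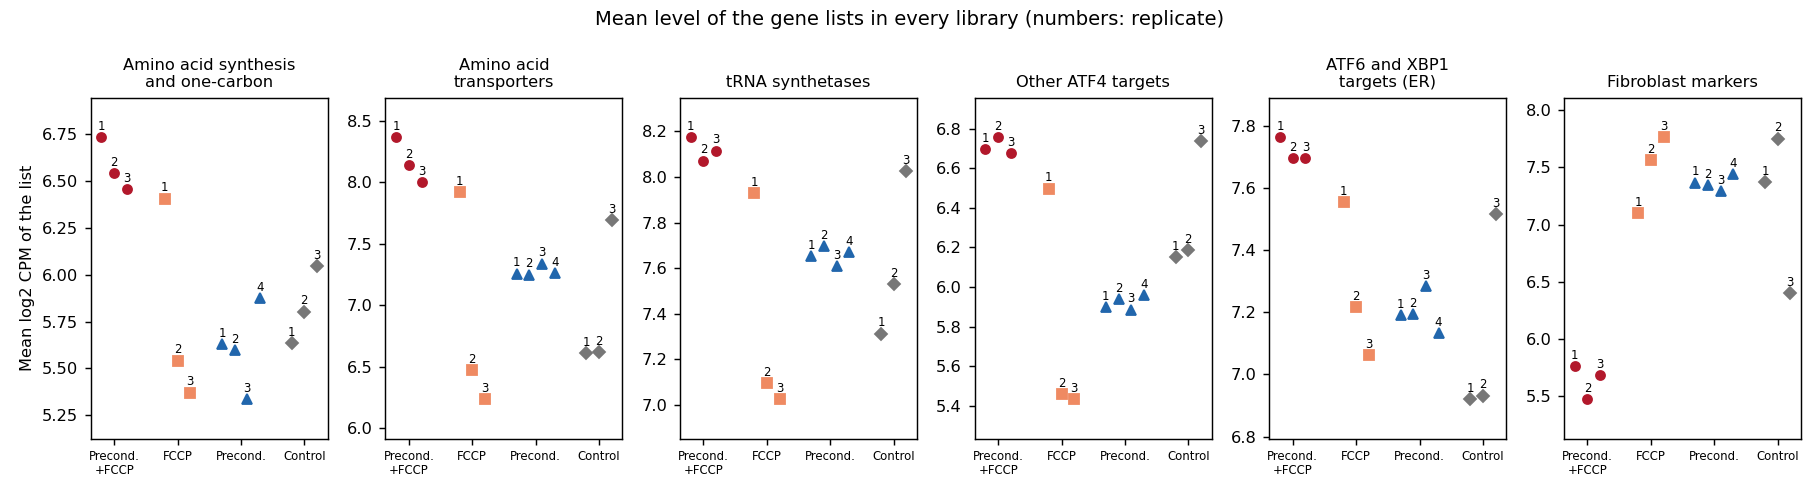
Mean log2 CPM of 6 gene lists in every library, by group, with replicate numbers. The 3 preconditioning+FCCP libraries lie above the preconditioning libraries for the 4 lists of ATF4 targets and the endoplasmic reticulum list and below them for fibroblast markers, and FCCP 1 and control 3 lie above the rest of their groups for the first 5 lists and below for fibroblast markers.

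Against FCCP alone the target lists showed 5 higher and 1 lower of 12 for amino acid synthesis, 3 of 8 transporters, 7 of 12 tRNA synthetases and 6 of 14 other targets higher, where 17.9% of all genes were. Without FCCP 1, where 39.7% of all genes were called in either direction, these counts were 8 of 12, 8 of 8, 11 of 12 and 9 of 14 higher, with 1 lower in the first list. FCCP 1 had the highest mean level of its group in each of these lists, so leaving it out lowers the FCCP level. FCCP against control gave 0 called of 12, 8 and 12 in the first 3 lists and 1 of 14 in the fourth. Over all genes 3.52% were called, so few calls would be looked for in lists of this size. The 1 was GDF15, a secreted stress factor, which fell (-1.94 ± 0.39 SE, adjusted p = 0.0185). Preconditioning against control gave 2, 0 and 1 lower and none higher in the first 3 lists, where 13% of all genes were lower and 10.5% higher. The share lower was slightly above 13% in the first list and below it in the other 2, each on few genes. The fourth list had 5 of 14 lower, among them EIF4EBP1, a brake on translation initiation (-1.28 ± 0.23 SE, adjusted p = 0.00263). Without control 3 the fourth list had 3 higher and 4 lower, where 34.7% of all genes were called.

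Genes of cell death that CHOP is known to act on were split. BCL2L11 (2.37 ± 0.37 SE, adjusted p = 0.000232), BBC3 (1.29 ± 0.25 SE, adjusted p = 0.00105) and the death receptor gene TNFRSF10B (0.78 ± 0.29 SE, adjusted p = 0.0437) rose against preconditioning alone, 3 of 6. BCL2, the survival gene that CHOP is known to repress, was not called there (0.29 ± 0.37 SE, adjusted p = 0.560). Against FCCP alone BCL2 was higher by 2.26 ± 0.44 SE (adjusted p = 0.00165), beside BCL2L11 and TNFRSF10B. BCL2 was scarce, with 4.97, 3.98 and 2.20 CPM in preconditioning+FCCP and 0.90, 0.85 and 0.55 CPM in FCCP libraries. Control libraries had 1.72, 3.76 and 4.25 CPM, within or near the range of the combined treatment. In FCCP against control, 1 of the 6 genes was lower and none higher, where 1.92% of all genes were lower.

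The genes that set the eIF2alpha mark itself did not move as a block. Of 18 genes of eIF2 control, 3 rose and 5 fell in preconditioning+FCCP against preconditioning libraries, with a median log2 change of 0.09. DNAJC3, which holds back the kinase PERK, rose by 1.33 ± 0.29 SE (adjusted p = 0.00218). The phosphatase subunit gene PPP1CA fell by 0.92 (0.20 SE, adjusted p = 0.00217) and EIF2AK2, which encodes the kinase PKR, by 0.64 (0.17 SE, adjusted p = 0.00643). Preconditioning against control had 3 of 18 higher and none lower, where 23.6% of all genes were called, 10.5% as higher and 13% as lower. The 3 were the kinase genes EIF2AK2 (0.71 ± 0.17 SE, adjusted p = 0.00808), EIF2AK4 (0.68 ± 0.17 SE, adjusted p = 0.0102) and EIF2AK3 (0.997 ± 0.29 SE, adjusted p = 0.0231). The share called in this list was not above the 23.6% over all genes, while the share called higher was above the 10.5%. With a term for the library set none of the 18 was called in that comparison, nor was any member, where 2.73% of all genes were.

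Targets of ATF6 and XBP1, the other branches of the unfolded protein response, had 6 of 18 higher and none lower in preconditioning+FCCP against preconditioning libraries, led by SYVN1 (1.28 ± 0.17 SE, adjusted p = 7.27e-05). The members also lie under other controls. Of 14 immediate early genes 7 rose and 3 fell, and FOS rose by 6.05 ± 0.80 SE (adjusted p = 6.63e-05). Of 13 p53 targets 5 rose and none fell. For the p53 targets and the ATF6 and XBP1 targets the share called was near or below the 39.4% over all genes in either direction. All of these calls were higher, a share above the 20.2% called higher over all genes. Of 9 hypoxia targets tested 1 rose and 4 fell, among them LDHA, the lactate dehydrogenase gene (-2.57 ± 0.39 SE, adjusted p = 0.000176). Their part in the levels of ATF3, SESN2, PPP1R15A or DDIT4 was not tested.

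Markers of fibroblasts moved against the arm. Of 12, 11 fell and none rose in preconditioning+FCCP against preconditioning libraries, and their summed level was 2716 to 4375 CPM in preconditioning+FCCP, 9143 to 10741 CPM in FCCP, 9497 to 10106 CPM in preconditioning and 7441 to 14565 CPM in control libraries. Without preconditioning+FCCP 3 all 12 fell. Markers of endothelium summed to 3.45 to 5.36 CPM in preconditioning+FCCP, 9.22 to 15.7 CPM in FCCP, 22.0 to 26.5 CPM in preconditioning and 8.97 to 18.4 CPM in control libraries. Most of this sum was TEK alone, with 1.76 to 3.88 CPM in preconditioning+FCCP and 18.1 to 21.1 CPM in preconditioning libraries. Of the 8 endothelial markers 5 were abundant enough to test. Immune markers summed to at most 9.10 CPM in any library. Whether a shift in the make-up of the cells has a part in the levels of the arm was not tested.

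Over the 13 libraries the members varied together, except DDIT4. Of 45 pairs, 40 had a positive correlation of log2 CPM over the 13 libraries, with a median Pearson r of 0.66. The closest were ATF3 with PPP1R15A and ATF4 with DDIT3, each with r = 0.94, and the pair farthest apart was ATF3 with DDIT4 at r = -0.31. With group means taken out, 43 pairs were positive with a median of 0.64. DDIT4 then had r of 0.65 with ATF4 and 0.42 with DDIT3, but -0.11 with TRIB3 and -0.13 with PPP1R15A. These values share libraries, their depth and their scaling. They also hold the 3 libraries that stood apart. FCCP 1 was the highest of its group for 10 members, preconditioning+FCCP 3 for 9 and control 3 for 7. Correlations without these libraries, or over pairs of other genes for comparison, were not computed.

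Among 10954 other genes with a symbol and at least 5 CPM on average, those most like ATF4 over the 13 libraries were RSL24D1 (r = 0.98), BTG1 (r = 0.98), SNORC (r = 0.98), NELFA (r = 0.98) and SMG1P7 (r = 0.97). For DDIT3 they were GAD1, SNRPA1, AOC2, CCDC174 and IFRD1, with r of 0.97 to 0.98. For CHAC1 the nearest 3 were tRNA synthetase genes, TARS1 (r = 0.95), GARS1 (r = 0.94) and MARS1 (r = 0.93), followed by BAZ1A and CEBPG (r = 0.93 each).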

How the data were processed

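Groups follow the treatment named in the labels. The files hold read counts per gene, deposited by the authors without normalization. The submitters' processing notes name HISAT2, HTSeq and hg19 but no version. Annotation release and use of strand are not given, and the labels' protocols describe poly-T selection and random priming. Each table held 63241 gene IDs, 42338 of them matched to a symbol. Rows outside genes were not used: reads in no gene (2.13% to 5.20%), in several genes (11.0% to 12.4%) and at several places (3.16% to 11.5%). Depth was 14970803 to 20636229 gene counts per library.

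Genes were filtered by edgeR's default, scaled by TMM and tested by quasi-likelihood in 1 model of all 13 libraries with a mean per group (edgeR 4.0.16, limma 3.58.1, R 4.3.3). Benjamini-Hochberg adjustment ran over 16756 genes, with calls under 0.05. The SE was taken from the log2 change and its F value. Log2 CPM used a prior count of 2, and CPM per kilobase the joint exon length in GENCODE 29. The test was tried on simulated counts.

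The members, lists and tests were chosen with earlier results of these data known. Of each list, up to 4 called genes with the smallest adjusted p per comparison could be named, and relatives of the members whenever tested. PYCR1, BCL2 against preconditioning, MARS1, TEK and genes that complete a count of 5 or fewer were named after their values were seen. Alternatives were other scalings, no filter, DESeq2 1.42.0, limma-voom, compared groups alone, a replicate block, library sets parted at 6.17% of reads at several places, and libraries left out. Replicate numbers did not pair the libraries.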

Additional observations from a re-analysis of the deposited data

Results flagged for a closer look

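DDIT4 in preconditioning 3 was 166 CPM, against 104, 107 and 109 CPM in the other preconditioning libraries, farther from them than Dixon's 95% limit for 4 samples allows. This was 1 of 10 groups checked, and chance marks about 1 in 20. The other 9 members showed no such library in this group.

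The FCCP effect differed between cells with and without preconditioning, by the interaction test over 13 libraries, for DDIT3 (log2 difference 2.70 ± 0.60 SE), CEBPB (1.497 ± 0.41 SE), ATF4 (1.43 ± 0.48 SE) and ATF5 (1.12 ± 0.36 SE). The log2 change of preconditioning against control was negative for all 10 members, these 4 included. DDIT3 was called in all 13 fits with a library left out, CEBPB in 12, and ATF4 and ATF5 in 3 each.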

How the results depend on the processing

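For preconditioning+FCCP against preconditioning, 7 to 9 of 10 members were called higher under every alternative run, with 7 under DESeq2 and 7 to 8 with a library left out. Counts in the other comparisons moved. The counts of list genes with libraries left out or a set term were added after seeing the data. The percentages that follow are the share of all genes called in the same fit. FCCP against control, 2 as reported (3.52%), gave 1 with DESeq2 size factors (3.35%), 5 without the filter (2.96%), 0 with limma-voom (2.28%), 0 with the compared groups alone (0.111%), 0 within the higher-share set (0.174%), 5 without the 3 libraries that stand apart (18.1%), and 0 to 3 with a library left out (0.818% to 5.1%). Preconditioning against control, 4 (23.6%), gave 0 with a set term (2.73%), 8 within the lower-share set, which holds 1 control library (19.9%), and 0 to 3 with a library left out (8.68% to 34.7%). Preconditioning+FCCP against FCCP, 3 (35.7%), gave 7 without the filter (16.4%), 5 with limma-voom (36.3%), 1 with the compared groups alone (27.8%), 1 with a set term (21.7%), 8 without the 3 libraries (53.9%) and 0 to 8 with a library left out (22.1% to 39.7%). Within the higher-share set it gave 0, but preconditioning+FCCP is 1 library there, assumed to vary like the others, and 0.0168% of all genes were called, so this 0 says nothing about the members. The interaction, 4 (19%), gave 10 without the filter (9.38%), 10 without the 3 libraries (37.3%) and 1 to 10 with a library left out (11.6% to 26.1%). Without the 3 libraries, preconditioning against control gave 2 members higher and 4 lower (48.9%). The 5 called in FCCP against control without them were 2 higher and 3 lower. The cause of these shifts in the counts was not tested.

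Replicate numbers did not pair the libraries (correlations of deviations from -0.19 to 0.16). With the number as a replicate block, the counts were 0 for FCCP against control (0.316%), 0 for preconditioning against control (11%), 2 for preconditioning+FCCP against FCCP (29.3%), 7 for preconditioning+FCCP against preconditioning (29.9%) and 2 for the interaction (11.3%).

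Signs turned for values that were not called as reported. In FCCP against control, CHAC1 (0.05) was -0.080 with library totals alone, -1.97 with limma-voom and -0.72 with the block. Without the 3 libraries CHAC1 was called lower at -3.10 (adjusted p = 8.65e-05). TRIB3 kept its sign there and was called lower too, at -0.76 (adjusted p = 0.0355). TRIB3 (-0.07) was 0.52 with a set term and 0.73 within the higher-share set, and CEBPB (-0.17) 0.040 there. ATF4, DDIT3 and SESN2 were -0.25, -0.35 and -0.15 without the 3 libraries. With a library left out, CHAC1 spanned -3.97 to 0.93, TRIB3 -1.49 to 0.66, ATF4 -0.10 to 0.83, DDIT3 -0.34 to 1.21, SESN2 -1.31 to 1.92 and CEBPB -0.46 to 0.12. In preconditioning against control, TRIB3 and SESN2 were 0.016 and 0.12 with limma-voom, and 0.55 (adjusted p = 0.0357) and 0.85 (adjusted p = 0.000122) without the 3 libraries, with left-out ranges of -0.47 to 0.55 and -0.66 to 0.86. In preconditioning+FCCP against FCCP, ATF4 spanned -0.12 to 0.95 and DDIT4 -0.064 to 0.47. In preconditioning+FCCP against preconditioning, DDIT4 spanned -0.38 to 0.029.

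With library totals alone the median of all genes was 0.19 (preconditioning+FCCP against FCCP), 0.11 (against preconditioning), 0.09 (preconditioning against control) and 0.13 (interaction). The share of calls that were higher was then 64.1%, against 50.3% with TMM, in the first, 55.3%, against 44.7%, for preconditioning against control and 58.0%, against 45.4%, for FCCP against control. No interaction could be fitted within a set or with compared groups alone.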
